A study of Arabidopsis thaliana with 4 samples.

Results

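The 10 genes described here are Arabidopsis chaperones of the HSP70 and HSP90 families. They were taken by locus from the 24750 genes listed. Of these, 5 encode cytosolic HSP70: HSC70.1 (AT5G02500), HSC70.2 (AT5G02490), HSC70.3 (AT3G09440), HSP70-4 (AT3G12580) and HSP70B (AT1G16030). The HSP70 of the endoplasmic reticulum, BiP, is encoded by BIP1 (AT5G28540) and BIP2 (AT5G42020). The cytosolic HSP90 genes are HSP90.1 (AT5G52640), HSP90.2 (AT5G56030) and HSP90.3 (AT5G56010). All 10 genes passed the filter of at least 5 counts summed over the libraries.

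The study sequenced native polyadenylated RNA by Oxford Nanopore direct RNA sequencing, in which a whole RNA strand passes a protein pore and no PCR copies are made. There were 2 floral bud libraries and 2 seedling libraries of wild-type Col-0 plants, each labelled a biological replicate. The floral buds were unopened and came from plants raised for 14 days on sugar-containing agar plates and for another 3 weeks in soil. The seedlings were harvested after 14 days on such plates. Both stages were grown with 16 h of light and 8 h of dark, and no stress treatment is described for either. Organ, age and growth medium differ together between the stages and cannot be told apart.

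Chaperones of the HSP70 family bind stretches of unfolded protein and release them under ATP hydrolysis, helped by J-domain proteins and nucleotide exchange factors. HSP90 works later, on proteins that are nearly folded, and takes many of its clients from HSP70 through co-chaperones such as HOP and p23. Plants hold constitutive members of both families, often called cognate, and members with low transcript levels at normal temperature that heat shock factors switch on. BiP serves the same purpose in the endoplasmic reticulum, where floral tissues with secretory cells, such as the anther tapetum, place a high load on protein folding.

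The C-terminus sets these families apart by compartment, so the ends of the coding sequences are shown from the RefSeq genome of TAIR10.1. Each run holds the last 30 coding bases on the coding strand with the stop codon at its end, and capitals mark the last 4 codons before the stop.
HSC70.1 (chr5:554055-554084, minus strand): gctggacctaagatcGAGGAGGTCGACtaa
HSC70.2 (chr5:550296-550325, minus strand): gctggtcccaagatcGAGGAAGTCGACtaa
HSP70B (chr1:5502386-5502415, minus strand): ggaggtcccaagatcGAAGAGGTGGATtag
HSP90.2 (chr5:22689404-22689433, plus strand): gaaggtagcaagatgGAGGAAGTCGACtaa
HSP90.1 (chr5:21355118-21355147, plus strand): gaagagagcaagatgGAGGAAGTCGACtaa
BIP1 (chr5:10540665-10540694, minus strand): gaggaagatgagtctCACGATGAGCTCtag
BIP2 (chr5:16807697-16807726, minus strand): gaggaagatgagtctCACGATGAGCTCtag
Cytosolic HSP70 and HSP90 proteins are known to end in an EEVD tail, to which co-chaperones with tetratricopeptide repeats dock, and BiP in an HDEL signal that holds it in the endoplasmic reticulum. The marked codons of the cytosolic HSP70 and HSP90 genes resembled each other across the families, and those of the BiP genes were of another kind. The last 30 coding bases of BIP1 and BIP2 were the same.

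How far the copies differ matters for the counts, because a noisy long read has to be placed on one of them. HSC70.1 (chr5:553745-556623) and HSC70.2 (chr5:550035-552827) lie side by side on the minus strand of chromosome 5, 917 bp apart with no annotated gene between them. Their aligned coding bases were 87.17% identical, with 251 mismatches. The runs below are the 60 coding bases, within 1 exon, at which each pair differs most, with the differing bases in capitals.
HSC70.2 (chr5:551963-552022, minus strand): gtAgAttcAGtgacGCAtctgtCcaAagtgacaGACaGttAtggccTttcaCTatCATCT
HSC70.1 (chr5:555716-555775, minus strand): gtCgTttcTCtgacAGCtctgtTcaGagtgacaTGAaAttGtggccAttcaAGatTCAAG
BIP1 (chr5:10542990-10543049, minus strand): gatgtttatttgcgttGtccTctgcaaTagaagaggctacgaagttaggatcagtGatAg
BIP2 (chr5:16810074-16810133, minus strand): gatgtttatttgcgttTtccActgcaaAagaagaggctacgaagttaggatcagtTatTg
HSP90.2 (chr5:22688813-22688872, plus strand): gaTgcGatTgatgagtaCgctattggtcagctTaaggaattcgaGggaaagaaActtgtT
HSP90.3 (chr5:22683291-22683350, plus strand): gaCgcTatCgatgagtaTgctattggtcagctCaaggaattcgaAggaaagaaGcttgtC
In these stretches HSC70.2 and HSC70.1 differed at 22 of the 60 bases, HSP90.2 and HSP90.3 at 8, and BIP1 and BIP2 at 5. Over the whole coding sequence, BIP1 and BIP2 had 60 mismatches (97.01% identity), and HSP90.2 and HSP90.3 had 91 (95.67%). The reads of BIP1 and BIP2, and those of HSP90.2 and HSP90.3, are therefore uncertain between the loci, and both sets were also analysed as sums. A further close relative of HSC70.2, HSP70T-1, with transcripts 87.42% identical to it, was not analysed here.

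The libraries held between 579350 and 796873 estimated counts. At that depth the smallest number taken as detectable, 3 counts, stood for 3.74 to 5.30 CPM, the count scaled by the normalised library size, and this limit covers counting error only. The floral markers checked the stage labels: the floral organ identity genes AP1, AP3, PI, AG and SEP3 and the tapetum genes A9 and MS1 were all higher in floral buds, while CAB1, LHCB3 and the root gene PYK10 were all higher in seedlings. RBCS1A, which encodes an abundant Rubisco subunit, was listed at 0 in every library, so a gene listed at 0 may still be transcribed. A differentially expressed gene (DEG) had a false discovery rate (FDR) below 0.05 over the 18647 genes tested, by edgeR's quasi-likelihood test with Benjamini-Hochberg adjustment, and a fold change above 2. Fold changes are floral buds over seedlings, so a positive log2 value is higher in floral buds. The fit shares 1 dispersion across genes, so every standard error (SE) and FDR rests on that model, and very small FDR values most of all. The scatter between a gene's own replicates hardly enters them. For 1 gene or share by itself, an exact permutation test of 2 libraries against 2 can go no lower than p = 0.33.

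HSC70.1 supplied most of the chaperone transcripts in both stages. It held 53.45% of the estimated counts of the 10 genes. Its estimated counts were 727.7 and 588.9 in the floral bud libraries, against 443.8 and 422.6 in the seedling libraries. Normalised for depth, these were 906.7 and 831.6 CPM in floral buds, against 783.4 and 716.0 CPM in seedlings. Each floral bud library was above each seedling library, but by little. HSC70.1, the major cognate HSP70 of the cytosol and nucleus, had a log2 fold change of 0.21 ± 0.14 (SE) and an FDR of 0.31.

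Levels of different genes were compared per kb of the longest annotated transcript. A read here can cover a whole strand, so counts need not grow with transcript length and this scaling can itself shift the order. HSC70.1 had 340.2 ± 20.8 CPM per kb in floral buds and 293.4 ± 18.7 in seedlings (SD, n = 2 each), and its lowest library, at 280.3, lay above the highest library of any other member, at 81.56. HSP90.2, HSP90.3, BIP1 and BIP2 followed in that order of their mean over the 4 libraries. In floral buds the libraries of these 4 genes overlapped, between 39.67 and 81.56 CPM per kb, so their order was not larger than the spread. In seedlings the libraries of HSP90.2, HSP90.3 and BIP1 overlapped as well, whereas both BIP2 libraries, at 26.82 and 33.43, lay below those of the other 3. HSC70.3 came next with 28.82 ± 1.39 CPM per kb in floral buds and 19.54 ± 3.61 in seedlings. HSC70.2 had 26.12 ± 5.60 in floral buds, where its libraries overlapped those of HSC70.3, and 2.78 ± 0.08 in seedlings, where they did not. Without the length scaling they were apart in floral buds too, at 74.76 and 55.07 CPM for HSC70.2 against 89.71 and 96.02 CPM for HSC70.3. By the mean over the 4 libraries, HSP70-4, HSP70B and HSP90.1 were lowest. Every library of theirs lay between 0 and 6.56 CPM per kb, and their libraries overlapped in both stages. In seedlings alone the mean of HSC70.2, at 2.78, was below theirs, at 5.33, 4.41 and 3.99. Its seedling libraries lay within the range of those of HSP70B and HSP90.1. HSP90.1 has a transcript model of coding sequence alone, so its value per kb is set somewhat high.

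**Figure D1:**
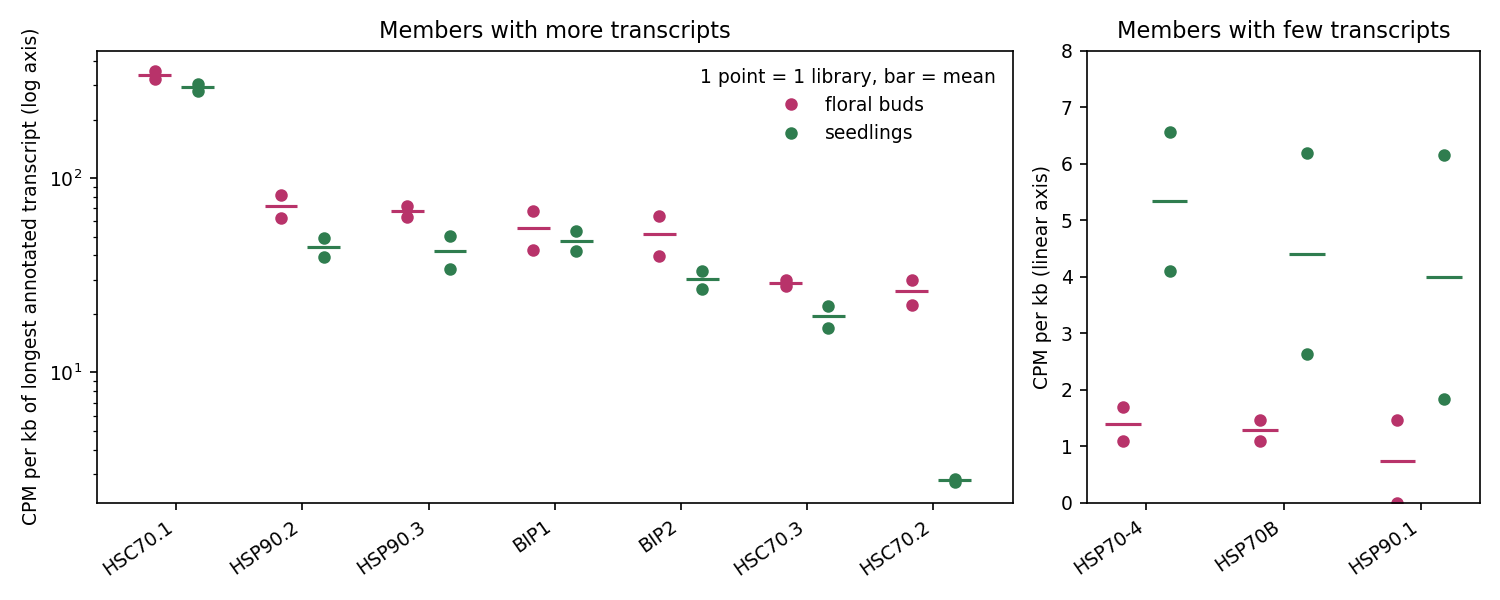
Level of each of the 10 chaperone genes in CPM per kb of its longest annotated transcript, with 1 point per library and a bar at the mean of the 2 libraries, floral buds left of seedlings; the left panel has a log axis and the right panel a linear one. HSC70.1 lies at 280.3 or more in every library, and HSC70.2 is near 26.12 in floral buds and near 2.78 in seedlings.

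HSC70.2, the neighbour of HSC70.1, rose in floral buds. It was the only one of the 10 members called a DEG, in a comparison where 19.8% of all tested genes were called and 10.3% were called higher in floral buds. It had 60 and 39 estimated counts in the floral bud libraries, against 4 and 4 in the seedling libraries. The normalised levels were 74.76 and 55.07 CPM in floral buds, against 7.06 and 6.78 CPM in seedlings, so both floral bud libraries lay far above both seedling libraries. The fitted log2 fold change was 3.20 ± 0.485, a fold change of 9.20, with an FDR of 9.31e-10. Since the seedling libraries held 8 counts together, the ratio of the summed counts was 9.47, with an exact 95% interval of 4.63 to 22.6 for counting error only.

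The call of HSC70.2 held in each alternative in which the gene was tested, with a log2 fold change between 2.97 and 3.37 with 1 library left out. In such a fit 1 stage has a lone library, which is assumed to vary like the other stage, so a kept call is weak evidence. The 95% interval of its log2 fold change, 2.25 to 4.15, lay above that of HSC70.1, -0.07 to 0.50, although the difference between these neighbours was not tested. In bulk RNA, fewer cells of a type and less RNA per cell cannot be told apart. The 2 tapetum markers summed to 391.2 and 255.7 CPM in floral buds and were listed at 0 in both seedling libraries, and the 5 floral organ identity genes summed to 1174.3 and 1083.9 CPM in floral buds, against 9.3 and 6.2 CPM in seedlings. The part of any floral cell type in the HSC70.2 result was not tested.

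HSC70.3, a cognate member on chromosome 3, had 72.0 and 68.0 estimated counts in floral buds, against 31.0 and 42.0 in seedlings. Its normalised levels of 89.71 and 96.02 CPM in floral buds were above the 54.72 and 71.17 CPM in seedlings, with a log2 fold change of 0.56 ± 0.28 and an FDR of 0.15. A small nucleolar RNA gene on the same strand overlaps HSC70.3 by 122 bp, and a protein-coding gene on the other strand, not analysed here, overlaps it by 863 bp. Since strand was not used when reads were joined to genes, some counts of HSC70.3 are uncertain.

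The heat-inducible cytosolic members HSP70-4 and HSP70B were rare in both stages. HSP70-4 had 3.4 and 2.0 estimated counts in floral buds, against 5.9 and 9.8 in seedlings, and HSP70B had 3 and 2 in floral buds, against 9 and 4 in seedlings. Both floral bud libraries lay under both seedling libraries for each gene. The ratio of summed counts, floral buds over seedlings, was 0.239 for HSP70-4, with an exact 95% interval of 0.0685 to 0.683. For HSP70B it was 0.294, with an interval of 0.0822 to 0.880. Neither passed the test, with an FDR of 0.0591 for HSP70-4 and of 0.147 for HSP70B.

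Heat shock factors bind inverted repeats of nGAAn, so the window of 300 bases from 250 before to 50 after each annotated start was searched on both strands. A run of 2 units was written as GAANNTTC or TTCNNGAA, and a run of 3 units adds 1 more unit at the same spacing of 2 bases, so every run of 3 contains runs of 2. HSP90.1 is annotated from its start codon, so its window need not be its promoter, and its lack of a match tells nothing of the element. The 3-unit form was found for 2 of the other 9 members and in 0.473% of 37883 windows of the genome, and the 2-unit form for the same 2 members and in 19.4% of the windows. These matches, from the TAIR10.1 genome with the GAA and TTC units in capitals, lie just after the annotated start.
HSP70-4 (chr3:3993845-3993874, minus strand): ttactcgtGAAcgTTCtcGAAagctctttg
HSC70.3 (chr3:2905898-2905927, minus strand): aagccatcgaaccGAAcaTTCtcGAAcctt
The match in HSP70-4 covers bases 21 to 33 counted from the start, and that in HSC70.3 bases 34 to 46. HSP70-4 was at or near 3 counts in floral buds and HSC70.3 had at least 68 there, and a match of letters is a description and not a shown binding site. None of these windows held the endoplasmic reticulum stress element in its common spelling, CCAAT and CCACG 9 bases apart, found in 0.333% of windows. The spelling searched first, with CACG in place of CCACG, is 1 base shorter. None held it either, and it was found in 0.119% of windows. The unfolded protein response element TGACGTG was found for BIP2, on the opposite strand at bases 28 to 34, and in 3.02% of windows.

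Together the 5 cytosolic HSP70 genes had 1033.7 ± 64.3 CPM in floral buds and 844.4 ± 38.3 CPM in seedlings (SD, n = 2 each), a ratio of 1.22. HSC70.1 made up 84.02% and 84.15% of their counts in floral buds, against 89.90% and 87.61% in seedlings. HSC70.2 supplied 6.93% of the family in floral buds replicate 1 (95% Wilson interval 5.42 to 8.82%) and 5.57% in floral buds replicate 2 (interval 4.10 to 7.53%). In the seedling libraries it supplied 0.81% (interval 0.32 to 2.06%) and 0.83% (interval 0.32 to 2.11%). These intervals take reads as independent draws and cover counting error only. The mean share of HSC70.2 was 5.43 percentage points higher in floral buds. The exact two-sided permutation test gave p = 0.33 for this share, the smallest value that 2 libraries against 2 allow.

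**Figure D2:**
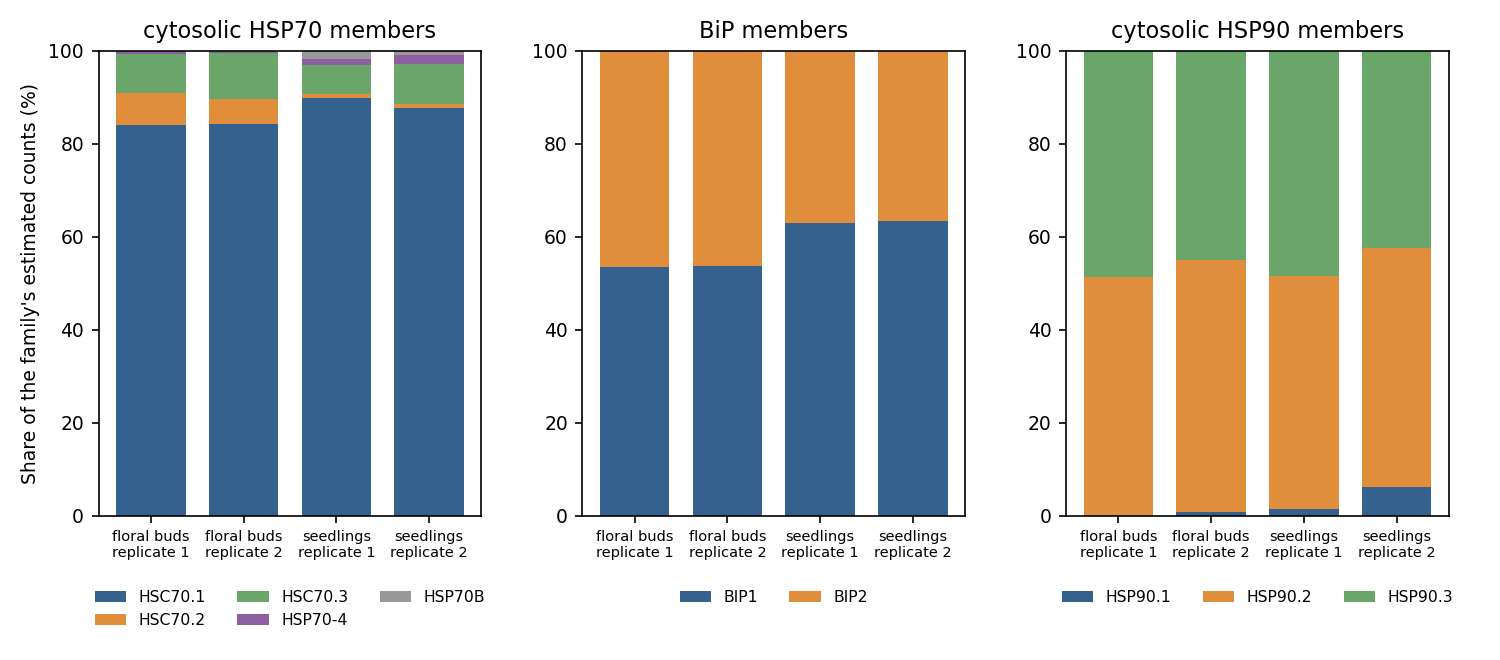
Share of each member in the estimated counts of its family, in percent, with 1 stacked bar per library and the floral bud libraries left of the seedling libraries, for the 5 cytosolic HSP70, 2 BiP and 3 cytosolic HSP90 genes. HSC70.1 fills 84.02% or more of every HSP70 bar, the HSC70.2 segment is 5.57% or 6.93% in floral buds and 0.81% or 0.83% in seedlings, and BIP1 holds a smaller share in floral buds.

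BIP1 and BIP2, the 2 constitutively expressed BiP genes, varied between the floral bud replicates as much as between the stages. BIP1 had 153.9 and 85.5 estimated counts in floral buds, against 67.6 and 89.1 in seedlings. As CPM these were 191.8 and 120.7 in floral buds, against 119.2 and 150.9 in seedlings, so the stages overlapped, as for no other member. Its log2 fold change was 0.21 ± 0.22 with an FDR of 0.564, and it turned to -0.165 without floral buds replicate 1.

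BIP2 had 134.1 and 73.5 estimated counts in floral buds, against 39.8 and 51.6 in seedlings. Both floral bud libraries, at 167.1 and 103.8 CPM, were above both seedling libraries, at 70.18 and 87.50 CPM. The log2 fold change of 0.78 ± 0.25 had an FDR of 0.011, and the fold change of 1.72 was under the limit for a DEG. Without floral buds replicate 2 the log2 fold change was 1.04, which made BIP2 a DEG. The FDR was 0.43 without floral buds replicate 1 and 0.149 without seedlings replicate 1. BIP2 was past an FDR of 0.05 in 8 of 15 alternatives. The 15 include the sum with BIP1, which does not test BIP2 by itself, and glmTreat, a test against a fold change of 2.

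The split between the copies was steadier than their levels. BIP1 supplied 53.44% and 53.76% of the BiP counts in floral buds, against 62.95% and 63.30% in seedlings, a difference of -9.52 percentage points. The replicates of a stage lay within 1 point of each other, while the Wilson intervals of single libraries were wide, from 47.70 to 59.15% in floral buds replicate 1 and from 54.11 to 72.05% in seedlings replicate 1, and overlapped. The exact two-sided permutation p was 0.33. As the copies share 97.01% of their aligned coding bases, the way reads were placed on them bears on this share. The sum of both copies does not depend on that placing, and was 358.8 and 224.5 CPM in floral buds, against 190.6 and 238.9 CPM in seedlings, so the stages overlapped here too. Its log2 fold change was 0.45 ± 0.19 with an FDR of 0.0672.

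The cognate HSP90 genes HSP90.2 and HSP90.3 were both higher in floral buds, by less than 2-fold. HSP90.2 had 139.2 and 161.0 estimated counts in floral buds, against 77.4 and 64.4 in seedlings. At 173.4 and 227.4 CPM in floral buds, against 136.7 and 109.1 CPM in seedlings, its libraries did not overlap. The log2 fold change of HSP90.2 was 0.71 ± 0.22 with an FDR of 0.0068. HSP90.3 had 131.7 and 133.7 estimated counts in floral buds, against 74.8 and 52.9 in seedlings. That corresponded to 164.1 and 188.7 CPM in floral buds, against 132.0 and 89.58 CPM in seedlings, also apart. The log2 fold change of HSP90.3 was 0.67 ± 0.23 with an FDR of 0.0159. Neither gene passed an FDR of 0.05 without floral buds replicate 2 (0.185 for HSP90.2 and 0.133 for HSP90.3) or without seedlings replicate 2 (0.144 for HSP90.2 and 0.33 for HSP90.3). Of 15 alternatives, 10 kept HSP90.2 and 9 kept HSP90.3 past an FDR of 0.05. Both counts include the sum of the near-identical copies, which tests neither gene by itself. The 15 also include glmTreat, a test against a fold change of 2 that a gene under 2-fold cannot pass.

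HSP90.2 and HSP90.3 lie close together on the plus strand of chromosome 5, at chr5:22686473-22689671 and chr5:22681238-22684252, and the copy HSP90.4 lies 1085 bp from HSP90.3. Their transcripts were 91.11% to 91.86% identical. HSP90.4 was rarer, with 15.1 and 33.6 estimated counts in floral buds, against 14.1 and 11.2 in seedlings, and an FDR of 0.368. The sum of the 3 copies had 356.3 and 464.6 CPM in floral buds, against 293.0 and 216.9 CPM in seedlings. Its log2 fold change was 0.69 ± 0.18 with an FDR of 0.000801, so the rise remained when the placing of reads among the copies was set aside, and it stayed under 2-fold. It was past an FDR of 0.05 without floral buds replicate 1 or without seedlings replicate 1, and missed it without floral buds replicate 2 (0.0843) or without seedlings replicate 2 (0.111).

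HSP90.1, the heat-inducible HSP90 of the cytosol, had 0 and 2.2 estimated counts in floral buds, against 2.2 and 7.6 in seedlings. Most of its seedling counts came from replicate 2. The ratio of its summed counts, floral buds over seedlings, was 0.153, with an exact 95% interval of 0.0163 to 0.719 for counting error only, and its FDR was 0.0987. Without floral buds replicate 2 the floral bud count was 0 and HSP90.1 became a DEG with an FDR of 0.0328.

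Together the 3 cytosolic HSP90 members had 378.3 ± 57.8 CPM in floral buds and 242.1 ± 43.1 CPM in seedlings, a ratio of 1.56. HSP90.2 supplied 51.38% and 54.24% of these in floral buds, against 50.15% and 51.55% in seedlings. The exact two-sided permutation p for the share of HSP90.2 was 0.67, and its stages overlapped.

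Among the 10 members, 4 passed an FDR of 0.05 at any fold change, all higher in floral buds (HSC70.2, BIP2, HSP90.2 and HSP90.3). Over all tested genes 23.9% passed it, 12.4% higher in floral buds and 11.5% higher in seedlings. The stages did not overlap in 9 of the 10 members, where 57.6% of all tested genes had stages that did not overlap. These 9 include HSP90.1, which had 2.2 estimated counts in both floral buds replicate 2 and seedlings replicate 1. Its stages were apart only after scaling, at 3.08 against 3.85 CPM in those libraries, all under the floor. The median log2 fold change of the members was 0.385, against 0.059 over all tested genes. The 7 cognate members (HSC70.1, HSC70.2, HSC70.3, BIP1, BIP2, HSP90.2 and HSP90.3) had positive log2 values, that of BIP1 only with floral buds replicate 1 in the fit. The 3 heat-inducible members had negative log2 values, none of which passed the test.

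**Figure D3:**
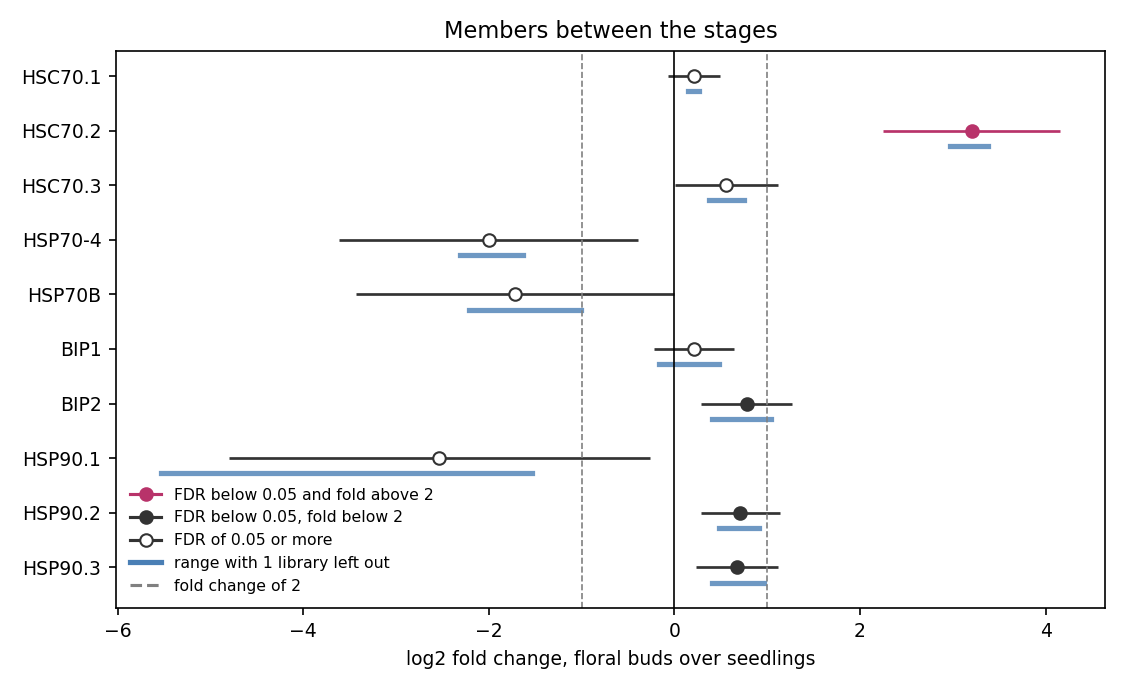
Log2 fold change of each member, floral buds over seedlings, with a line for its 95% interval from the fit across all genes and a blue bar for the range of values with 1 library left out; dashed lines mark a fold change of 2. HSC70.2 at 3.20 is the only filled point beyond the dashed lines, the filled points of BIP2, HSP90.2 and HSP90.3 lie between 0.67 and 0.78, and the blue bar of BIP1 crosses 0. The blue bar of HSP90.1 lacks the fit without seedlings replicate 2, where it fell under the count filter.

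The partners of these chaperones were taken from lists of the chaperone system, whose counts of DEGs stand against the 19.8% of all tested genes that were called. Among the other HSP70 and HSP110 genes, 1 of 9 tested was a DEG, which is no larger a share, and the median log2 fold change was 0.111. That gene was mtHSC70-2, an HSP70 of mitochondria, with 44.1 and 40.1 estimated counts in floral buds, against 9.6 and 10.3 in seedlings (log2 fold change 1.68 ± 0.415, FDR 0.000466). BIP3, a BiP gene that stress induces, was listed without a count in any library. Of the 4 other HSP90 genes, edgeR, DESeq2 and limma-voom called 0, and 1 had an unadjusted p below 0.05 with edgeR. This gene, HSP90.7, the HSP90 of the endoplasmic reticulum and named after its values were seen, passed the FDR at 0.000288 with 278.1 and 348.0 CPM in floral buds, against 184.5 and 174.3 CPM in seedlings, a log2 fold change of 0.79 ± 0.19.

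The cytosolic co-chaperones held 3 DEGs among 18 tested, a share under the 19.8% of all tested genes. Of these, 2 were higher in floral buds, and the list had a median log2 fold change of 0.015. P23-2, a p23 co-chaperone of HSP90, had 40.47 and 28.97 CPM in floral buds, against 5.97 and 18.0 CPM in seedlings (FDR 0.013). ROF1, a peptidyl-prolyl isomerase that binds HSP90, had 62.29 and 110.9 CPM in floral buds, against 51.81 and 34.07 CPM in seedlings (FDR 0.00668), and its fold change of 2.03 was just past the limit. FES1C, of the FES1 family of HSP70 nucleotide exchange factors, fell to 17.04 and 9.36 CPM in floral buds, against 43.77 and 26.95 CPM in seedlings (FDR 0.0238). The call of ROF1 or of the others depended on the setting, since 0 of the co-chaperones were called by DESeq2 or limma-voom, and 1 by edgeR without floral buds replicate 2 or without seedlings replicate 1.

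The list of endoplasmic reticulum folding and unfolded protein response genes held 7 DEGs among 20 tested (35%), all higher in floral buds, where 10.3% of all tested genes were called in that direction and 19.8% in either. Its median log2 fold change was 0.493, against 0.059 over all tested genes. CRT1B, a calreticulin that holds glycoproteins during folding, had 351.7 and 356.7 CPM in floral buds, against 134.1 and 108.7 CPM in seedlings. The log2 fold change of CRT1B was 1.55 ± 0.20 with an FDR of 2.97e-13. CNX1, its membrane-bound relative calnexin, had 282.4 and 310.2 CPM in floral buds, against 133.4 and 118.8 CPM in seedlings (log2 fold change 1.23 ± 0.20, FDR 2.46e-08). CRT1A, a second calreticulin, had 361.7 and 305.1 CPM in floral buds, against 159.9 and 171.3 CPM in seedlings (FDR 2.03e-06), a fold change of 2.01 at the edge of the limit. The other genes named from this list were chosen after their values were seen. ERO1, the oxidase that forms disulphide bonds with protein disulphide isomerases, and the J-domain protein P58IPK, a BiP partner, were also DEGs, with log2 fold changes of 2.06 ± 0.46 and 1.18 ± 0.38. ERDJ3B, another J-domain partner of BiP, was just past the fold limit (126.8 and 139.1 CPM in floral buds, against 71.0 and 60.98 CPM in seedlings, FDR 0.000834), and ERDJ3A had 9 and 9 counts in floral buds, against 2 and 0 in seedlings. SDF2, which works with ERDJ3B, and PDIL2-1, a protein disulphide isomerase, passed the FDR at 0.00219 and 0.00275 without reaching a 2-fold difference. CRT3, the third calreticulin, had a log2 value of -0.71 and an FDR of 0.133. The 5 listed genes that sense or relay stress in the endoplasmic reticulum did not pass the test, with log2 values of 0.42 for BZIP60, 0.46 for BZIP17, 0.37 for IRE1B, -0.495 for BZIP28 and -0.80 for IRE1A. The sum of BIP1 and BIP2 had a log2 fold change of 0.446, close to the list's median of 0.493. The DEGs named here were picked for passing the fold limit, so they lie above that sum by selection. Other genes of the list lay below it, such as PDIL1-1 at 0.222 and PDIL1-2 at -0.133. No difference between these fold changes was tested. Without floral buds replicate 1 or without seedlings replicate 2 the list held 4 DEGs.

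**Figure D4:**
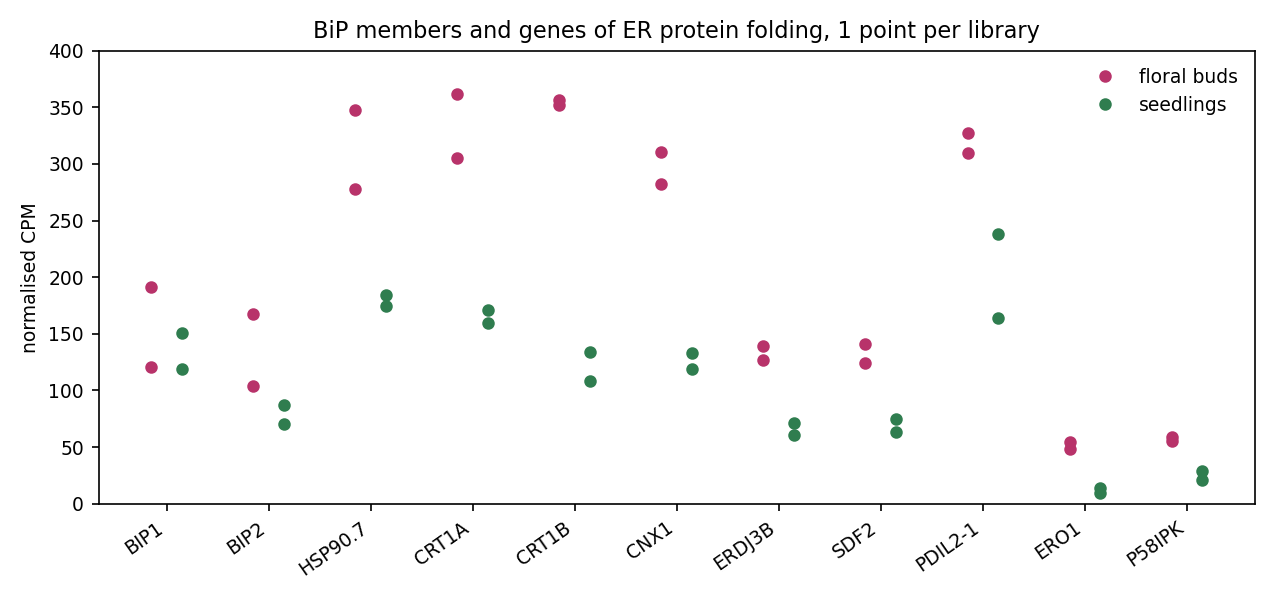
Normalised CPM of BIP1, BIP2 and 9 genes of protein folding in the endoplasmic reticulum that passed an FDR of 0.05 (ERDJ3A, with few counts, is left out), with 1 point per library and floral buds left of seedlings. The floral bud points of BIP1 overlap its seedling points, while those of CRT1B, at 351.7 and 356.7, lie far above its seedling points, at 134.1 and 108.7.

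The heat shock factors and the small heat shock proteins, of which many but not all genes are switched on by heat, were the lists with a negative median. Of the heat shock factors, 3 of 15 tested (20%) were DEGs, near the 19.8% of all tested genes called in either direction. All 3 were lower in floral buds (over all tested genes 9.52% were called in that direction). The median log2 fold change was -0.678, and -0.491 without the 1 gene at the floor in both stages. HSFA4A had 7.3 and 9.0 estimated counts in floral buds, against 28.0 and 12.7 in seedlings (FDR 0.00434). HSFB1 had 20.5 and 21.3 estimated counts in floral buds, against 30.7 and 34.5 in seedlings (FDR 0.0249). HSFA7A was listed at 0 in both floral bud libraries and had 5.1 and 2.9 estimated counts in seedlings, at least 1.75-fold lower in floral buds with 3 counts per library as the floor (FDR 0.0256). HSFA2, a factor that heat itself induces, had a value of 0 in all 4 libraries. Without floral buds replicate 1 or without seedlings replicate 1, 0 heat shock factors were called by edgeR, and without floral buds replicate 2, 1 was.

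The small heat shock proteins, HSP101 and partners held 5 DEGs among 13 tested (38.5%), all lower in floral buds and from few counts, where 9.52% of all tested genes were called in that direction and 19.8% in either. HSP15.4 was the only one with counts above the floor in every library, with 23.4 and 16.3 in floral buds, against 34.6 and 44.7 in seedlings (log2 fold change -1.42 ± 0.36, FDR 0.000647). HSP17.6A was listed at 0 in both floral bud libraries, against 7 and 6 counts in seedlings, at least 2.82-fold lower in floral buds (FDR 0.00152). HSP17.6B had 1 and 0 counts in floral buds, against 5 and 9 in seedlings, a ratio of 0.0547 with an exact 95% interval of 0.00129 to 0.359. HSP17.6C and HSP21 were listed at 0 in every library but seedlings replicate 2, where they had 10 and 8 counts, so their calls rest on that library. Without it the list held 2 DEGs, and without floral buds replicate 2 it held 3. HSP17.4, HSP22.0 and MBF1C each had a listed value of 0 in all 4 libraries. The median log2 fold change of the list was -1.06, and -0.77 with 6 genes at or under the floor in a stage set to their bound and 3 with no fold change left out. Seedlings replicate 2 also held the highest count of HSP70-4 and of HSP90.1, but not of HSP70B, whose highest count was in seedlings replicate 1.

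**Figure D5:**
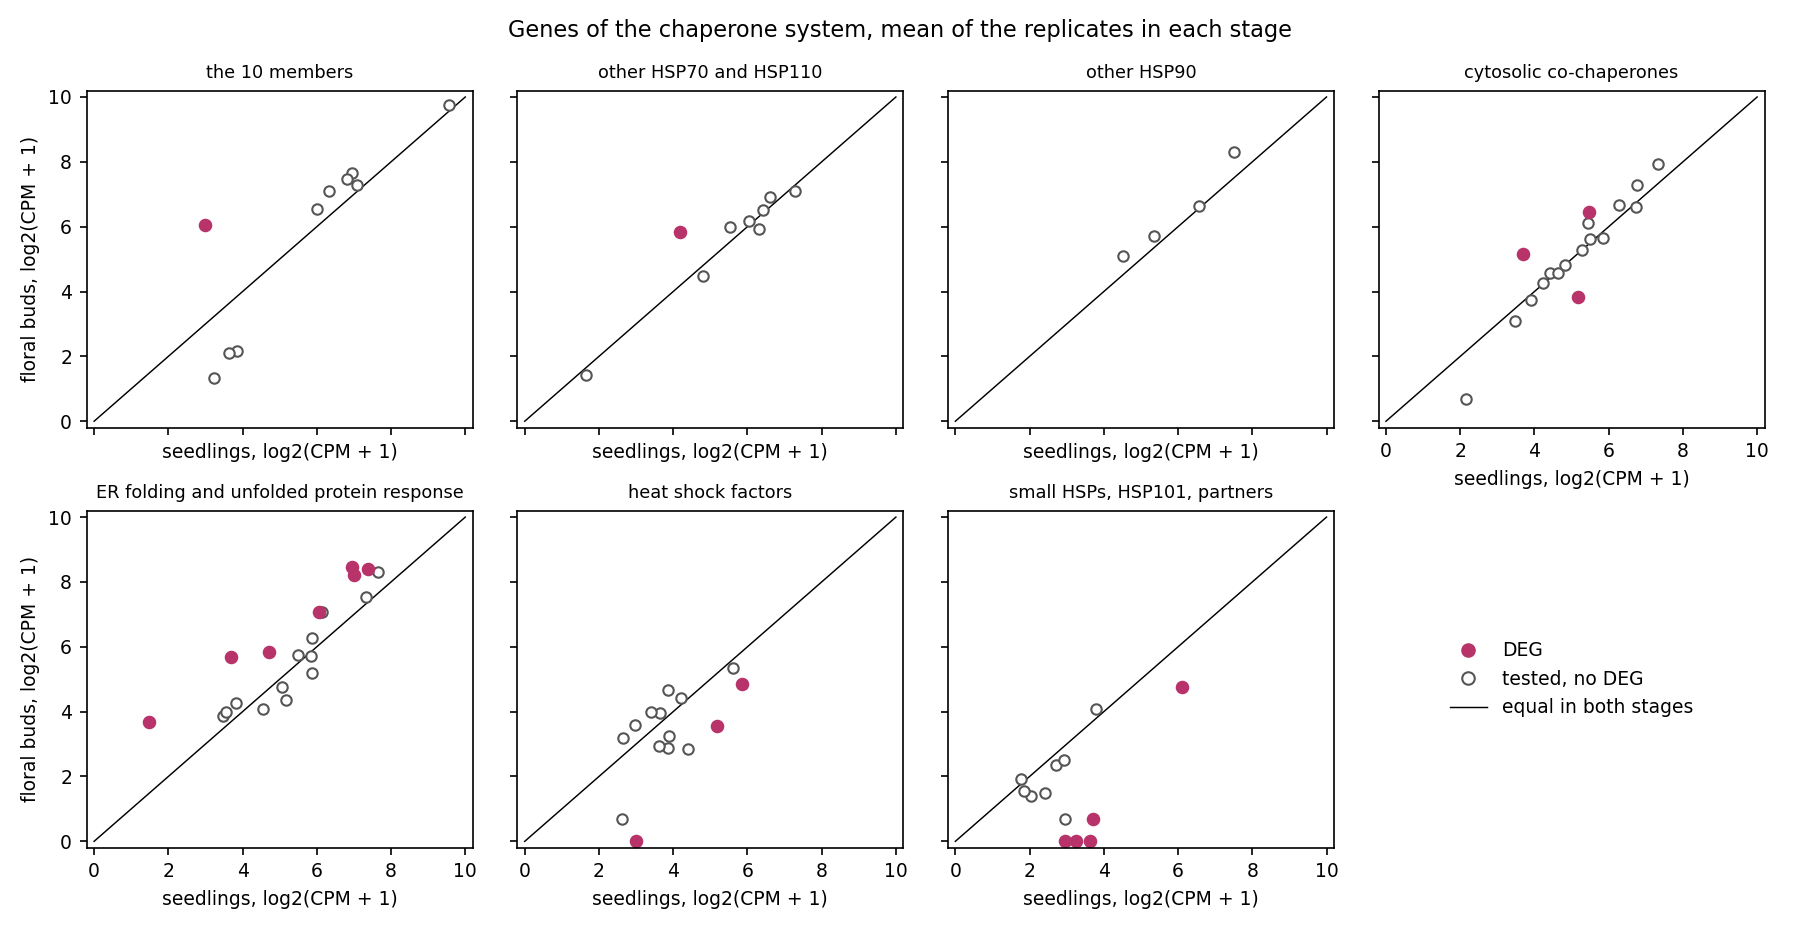
Mean level of each tested gene of the 10 members and 6 lists, in seedlings on the horizontal axis and floral buds on the vertical axis, as log2(CPM + 1), with DEGs filled and the line of equal levels drawn. Points above the line are higher in floral buds: 7 filled points of the endoplasmic reticulum list lie above it, and 5 filled points of the small heat shock protein list lie below it.

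The genes whose pattern over the 4 libraries was nearest to that of HSC70.1 were found by the Euclidean distance of log2 CPM centred on each gene's mean, among 6963 other genes with at least 10 counts in every library. ARF1 (AT1G23490), a small GTPase of vesicle transport, was at a distance of 0.0347, PH1 (AT2G29700) at 0.0436 and AT5G63460 at 0.0538. Like HSC70.1, these genes had log2 fold changes close to 0.2, of 0.215, 0.201 and 0.197, and none was a DEG.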

How the data were processed

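Native polyadenylated RNA of 2 floral bud and 2 seedling samples was sequenced on MinION flow cells. After base calling with Guppy, Minimap2 (2.17 per the processing notes of the labels) placed the reads on TAIR10 and TrackCluster assigned them to isoforms and genes. Its code accepts a 5% overlap of read and gene on either strand. Each file holds the estimated counts that the authors deposited, not normalised, of which 83.8% of those above 0 were not whole. Columns repeated in a combined table were identical to the single tables. All 24750 loci were matched to RefSeq TAIR10.1, whose coordinates count from 1.

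Estimated counts were rounded and genes with under 5 counts in sum dropped. The stages were compared by the quasi-likelihood test of edgeR 4.0.16 in R 4.3.3, after upper-quartile scaling and without covariates. The paper's methods name quantile normalization, for which upper-quartile scaling stands in. The SE of a log2 fold change is its size over the square root of F. CPM use the upper-quartile effective library size. The p-values and the SE rest on a spread shared across genes in the fit, and the scatter of a gene's own replicates hardly enters them. HSP21, with 0 and 8 counts in seedlings, and HSFA7A, with 5.1 and 2.9, had an SE of 1.882 and 1.881. The p-values cover these libraries only. Near-identical copies shared 90% of the bases over 80% or more of the shorter transcript (blastn 2.17.0). Shares have 95% Wilson intervals, and ratios of low counts exact binomial intervals (SciPy 1.17.1). On simulated counts for 18205 genes with 198 changed 4-fold between the stages, edgeR recovered 73 of 74 with a mean of at least 20 counts, DESeq2 1.42.0 53 and limma-voom (3.58.1) 45. Of all 198, edgeR recovered 103, DESeq2 58 and limma-voom 48. Every simulated gene had the same dispersion, taken from the edgeR fit, so the simulation cannot rank the tools on the real counts.

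The members and lists were chosen with earlier results of these data known. The genes named are the members, their copies, the DEGs of each list (the 3 with the smallest FDR in each direction where there were over 6), list genes at 0 in every library, the stage markers and the 3 genes nearest to HSC70.1, beside those marked as chosen after their values were seen and those named for a contrast with a member. The stress element ending in CCACG, its common spelling, was added after the first spelling gave few matches. Alternatives were TMM factors, library size alone, DESeq2, edgeR's exact test, limma-voom with quantile normalization, other count filters, no fold limit, glmTreat, a replicate block, unrounded counts, summed copies and each library left out.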

Additional observations from a re-analysis of the deposited data

How the results depend on the processing

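The number of DEGs over all tested genes was 3687, and 1965 with DESeq2, 2126 with glmTreat against a fold change of 2, and 1037 with at least 10 counts in each library. With 1 library left out it was 2906 to 3307. The members called numbered 1, but 0 with at least 10 counts in each library, a filter that removes HSC70.2, 4 with no fold limit, and 1 to 3 with 1 library left out. The log2 fold change of BIP1 was 0.21 and reversed to -0.165 without floral buds replicate 1, with a range of -0.165 to 0.476 with 1 library left out. That range was 0.405 to 1.044 for BIP2 and -5.533 to -1.533 for HSP90.1, and both were DEGs without floral buds replicate 2. BIP2, HSP90.2 and HSP90.3 missed an FDR of 0.05 with DESeq2 (0.211, 0.132 and 0.207) and with limma-voom (0.165, 0.138 and 0.138). HSC70.1 passed it with limma-voom (log2 fold change 0.334, FDR 0.0455), in 1 of 15 alternatives, and stayed under 2-fold. With library size alone its log2 fold change was 0.309 and its FDR 0.0565.

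Of the lists, DESeq2 called 0 of the other HSP70 genes (1 as reported), 0 of the co-chaperones (3), 3 of the endoplasmic reticulum genes (7), 0 heat shock factors (3) and 1 small heat shock protein (5). limma-voom called 0 co-chaperones, 4 endoplasmic reticulum genes and 3 small heat shock proteins. With no count filter these were 1, 4 and 3. With at least 10 counts in each library, 1 co-chaperone, 0 heat shock factors and 1 small heat shock protein were called. glmTreat called 0 other HSP70 genes, 0 co-chaperones, 2 endoplasmic reticulum genes, 0 heat shock factors and 3 small heat shock proteins. With no fold limit, 1 other HSP90 gene was called (0 as reported). With 1 library left out, 1 to 2 co-chaperones, 4 to 7 endoplasmic reticulum genes, 0 to 2 heat shock factors and 2 to 5 small heat shock proteins were called. The causes of these differences were not tested.

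With the replicate number as a block, 3095 DEGs were called, 1 of them a member, and 3 small heat shock proteins. The numbers did not pair the libraries. Over 6964 genes, the deviations of the replicates from their stage mean had a correlation of -0.074 between same-numbered libraries. Between libraries of crossed numbers it was 0.074. These values do not describe the expression levels themselves. In the summed copies, the log2 fold change of BiP was 0.073 to 0.714 and that of HSP90 was 0.46 to 0.91 with 1 library left out. The differences between the stages in the family shares of HSC70.1, HSC70.2, BIP1 and HSP90.2 moved by less than the spread of the replicates when shares were taken from CPM per kb, and that of HSP90.2 also with HSP90.4 added. At 3 counts a library can show 3.74 to 5.30 CPM, so HSP70-4, HSP70B, HSP90.1 and most small heat shock proteins are near the limit of detection in floral buds.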
